A study of Bos taurus with 8 samples.

Results

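Kupffer cells are the resident macrophages of the liver, and 10 genes that mark them or macrophages in general were followed here in liver RNA of Holstein bull cattle: MARCO, MSR1, CD163, CD5L, TIMD4, VSIG4, CSF1R, CD68, LYZ and MRC1. A member was taken from the array by the gene name that the deposited files give to its probe. By this rule 9 of the 10 genes had a probe, 1 each, among 15008 distinct probes, and MRC1, the mannose receptor, was not analysed here. All 9 probes were well above background on 8 of 8 arrays and entered the test, which covered 10985 probes.

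The trial used fistulated cattle of 5 to 6 months of age that were fed roughage for 11 days, then a high-grain diet for 2 days to bring on subacute ruminal acidosis (SARA), then roughage again. An immunoglobulin from egg yolk directed against lipopolysaccharide (LPS), the outer membrane component of Gram-negative bacteria, was placed in the rumen once a day for 14 days at 0, 2 or 4 g per head, with 11 cattle rotating through the doses in a replicated Latin square. The liver samples came from animals 19, 20, 23 and 24, 2 days after the challenge, and every one of these animals gave an array at 0 g and another at 4 g, while the 2 g dose was not analysed here. The 0 g group is thus the same 4 animals under the same diet challenge without the antibody, all groups had been challenged, and no unchallenged sample was used here. The labels do not say which dose an animal had first, so order and carry-over cannot be told apart from dose.

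Kupffer cells sit in the sinusoids, where portal blood from the gut passes them, and they take up bacteria, LPS, dying cells, worn red blood cells and modified lipoproteins. They do so through scavenger receptors, complement receptors and receptors for phosphatidylserine, a lipid that dying cells expose. Their survival depends on the receptor CSF1R and its ligands CSF1 and IL34. The genes are not equally specific: MARCO, TIMD4, VSIG4, CD5L and CD163 are typical of resident macrophages, whereas CSF1R, CD68, MSR1 and LYZ are also used by monocytes and other macrophages. In a piece of tissue, fewer macrophages and less RNA per macrophage cannot be told apart.

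Each value comes from a single oligonucleotide of 60 bases, so the probes that bear on the reading of the values are shown. The probes of MARCO and CD5L hold the letters AATAAA, the signal that directs polyadenylation of a transcript, on the printed strand, which was the only strand searched. The stretches of 30 bases around it are given 5′ to 3′ with these letters in capitals.

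MARCO: tgaagcaggttcAATAAAgctAATAAAgct

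CD5L: tttatgcttgctAATAAAgtagatgttaaa

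The MARCO stretch holds 2 copies that do not overlap, and 9.51% of all 15008 probes hold it at least once, against 2 of the 9 members. Probes of CD163 and CD68, the members that lay furthest above and furthest below the rest on 2 dim arrays described next, are given whole and in lower case, since no part of them was singled out.

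CD163: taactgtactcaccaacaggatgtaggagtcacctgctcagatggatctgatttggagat

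CD68: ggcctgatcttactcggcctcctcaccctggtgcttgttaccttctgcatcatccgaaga

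In the cattle assembly UMD 3.1, to which the files refer, the CD163 probe lies at chr5:102249050-102251237 on the plus strand, a span of 2188 bases for 60 bases of probe, so that it bridges sequence that is not in the transcript. The other probes lie at chr2:71134022-71134080 (MARCO), chr27:20056240-20056299 (MSR1), chr3:12564767-12564826 (CD5L), chrX:99933555-99933614 (VSIG4) and chr19:27923710-27923769 (CD68) on the plus strand. On the minus strand are chr7:70297942-70298001 (TIMD4), chr7:63379480-63379539 (CSF1R) and chr5:44712212-44712271 (LYZ). The files give positions of probes only, without exons or untranslated regions.

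A level is the log2 signal of a probe minus that of the 75th percentile on the same array, so a level of 0 equals that percentile. They compare 1 gene across arrays and do not rank genes, since probes differ in how strongly they bind. Markers of hepatocytes, 10 of 10, were well above background on every array, against 2 or 3 of 10 markers of rumen epithelium, the tissue that the extraction protocol in the labels names. Of the latter, KRT6B stood at 0.62 on the 0 g array of animal 19, against −5.11 to −2.51 on the other arrays. CA1 stood at −0.51 there, against −8.10 to −3.95, and KRT5 at −4.14, against −5.40 to −4.00. The brightness of the arrays differed: the 75th percentile of the signal was 121.8 on the 4 g array of animal 19 and 121.3 on the 0 g array of animal 20, and between 210.9 and 300.3 on the other 6, and these 2 are called the dim arrays below. The 0 g array of animal 23 carried pancreatic transcripts, with a mean level of 6.43 over 9 acinar markers against −4.74 to −3.01 on the other 7 arrays. The animal labels of 2 pairs did not match the data in 1 respect. Of 45 probes with 2 separate levels, 30 parted the dim arrays from the other 6. On 14, both arrays of animal 19 shared a level and so did both of animal 20, which was the condition for keeping them. Of these 14, 7 parted the arrays labelled 23 and 24 by dose, and 0 parted them by animal. On these 7, the 0 g arrays of animals 23 and 24 shared a level and their 4 g arrays the other. Of the remaining 7 probes, 4 put all 4 of these arrays on the same level and 3 showed another pattern. Differences are therefore given for each animal, and the summed results also for animals 19 and 20 alone. Each of these 2 animals has a dim array, at 4 g in animal 19 and at 0 g in animal 20. Within each of them dose thus cannot be told apart from brightness.

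The comparison between 4 g and 0 g asked whether the antibody altered the macrophage genes of the liver. None of the 9 genes passed the test: with limma and Benjamini-Hochberg adjustment, 0 of 9 had an adjusted p under 0.05, as did 0 of all 10985 probes (0%), and at an unadjusted p under 0.05 it was again 0 of 9 members, against 121 probes (1.1%). The difference was above 0 for 3 members (TIMD4, LYZ and CD163) and below 0 for 6, beside 53.6% above and 46.4% below over all tested probes. With quantile normalization, normexp background correction or median centring the members were divided 4 to 5, since CD5L, the gene nearest to 0, lay above it. The median difference of the members was −0.13, against 0.02 for all tested probes. In animals 19 and 20 alone 5 members lay above 0 and 4 below, with a median of 0.06. No member had the same sign in 4 of 4 animals, a pattern that 5.08% of the tested probes showed, and for no member were the 4 values at 0 g separate from the 4 at 4 g, as was the case for 0.601% of the probes. The 95% interval excluded a 2-fold change in either direction for 7 of the 9 members, the exceptions being TIMD4 and CD68, and for 64.3% of all tested probes. A p above the threshold does not show that the doses act alike, and the intervals give the sizes that remained possible.

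**Figure D1:**
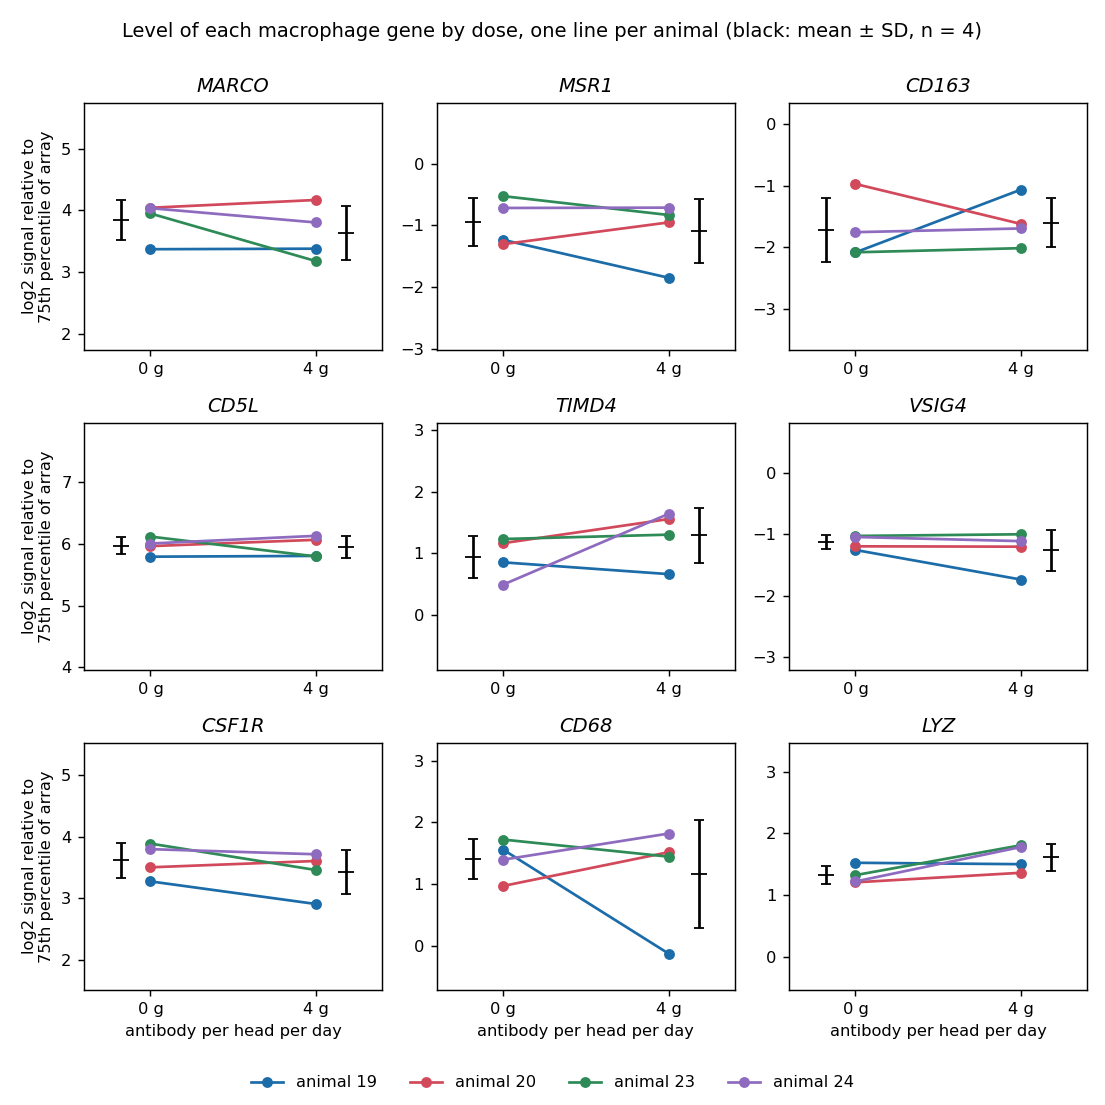
Level of each of the 9 macrophage genes (log2 signal minus the 75th percentile of its array, vertical axis) at 0 g and 4 g (horizontal axis), with a coloured line for each animal and the mean ± SD of 4 animals in black. The lines of a gene run in both directions, and the steepest is CD68 in animal 19, from 1.56 to −0.13.

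MARCO, a scavenger receptor that binds bacteria and LPS and is held by resident macrophages, stood at 3.37, 4.04, 3.95 and 4.03 at 0 g in animals 19, 20, 23 and 24, and at 3.38, 4.17, 3.17 and 3.80 at 4 g. Both arrays of animal 19 were low and both of animal 20 high, and the 4 g array of animal 23 was the lowest of all 8. The means were 3.85 ± 0.32 and 3.63 ± 0.44 (SD, n = 4), and the log2 difference was −0.22 (95% CI −0.82 to 0.39; limma adjusted p = 1.00). The difference came from the arrays labelled 23 and 24, at −0.77 and −0.23, and was 0.01 and 0.13 in animals 19 and 20, whose mean of 0.07 lies on the other side of 0. The level at 0 g in animal 19 stood apart from the 3 other animals at that dose, which lay within 3.95 to 4.04.

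MSR1, the class A scavenger receptor that takes up modified lipoproteins, stood at −1.23, −1.30, −0.52 and −0.72 at 0 g in the same order and at −1.85, −0.95, −0.83 and −0.71 at 4 g. Its lowest values were those of the dim arrays, −1.85 and −1.30, and the groups overlapped. The difference was −0.14 (SE 0.25; 95% CI −0.75 to 0.47; limma adjusted p = 1.00), with 2 animals up and 2 down, and it was 0.02 without animal 19.

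CD163, the receptor that clears haemoglobin bound to haptoglobin, stood at −2.08, −0.97, −2.08 and −1.76 at 0 g and at −1.06, −1.62, −2.02 and −1.70 at 4 g. Here the dim arrays held the highest values, −0.97 and −1.06, the opposite of MSR1. Before scaling, the processed signal of this probe ran only from 55.4 to 88.8 over the 8 arrays, a ratio of 1.60, against a median ratio of 3.21 over the tested probes, and 4.69% of them varied as little. The log2 difference was 0.12 (SE 0.32; limma adjusted p = 1.00), made up of 1.02 and −0.65 in animals 19 and 20 and of 0.07 and 0.06 in animals 23 and 24. Without animal 19 it was −0.17.

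CD5L, a secreted scavenger protein of tissue macrophages that keeps them alive and circulates bound to IgM, was the steadiest member. It stood at 5.79, 5.96, 6.12 and 6.01 at 0 g and at 5.81, 6.07, 5.80 and 6.13 at 4 g, a spread of 0.34 over all 8 arrays. The means of 5.97 ± 0.14 and 5.95 ± 0.17 (SD, n = 4) differed by −0.02 (95% CI −0.56 to 0.52), less than the spread between animals. Animal 23 was lower at 4 g, by 0.32, and the other animals were higher by 0.01 to 0.12.

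TIMD4, a receptor for phosphatidylserine on dying cells and a mark of long-lived resident macrophages, had the largest difference among the 9 genes. Its level was 0.85, 1.16, 1.23 and 0.49 at 0 g and 0.66, 1.56, 1.30 and 1.64 at 4 g. Animals 20 and 24 were clearly higher at 4 g, animal 23 was almost level and animal 19 was lower, and the ranges overlapped. The log2 difference was 0.36 (SE 0.29; 95% CI −0.34 to 1.06; limma adjusted p = 1.00), with 1.15 in animal 24 alone, and it was 0.09 without that animal. Without the dim arrays and without pairing it was 0.64 (SE 0.23), the only member with an unadjusted p under 0.05 in any of the 17 alternative settings, and its limma adjusted p there was still 1.00. That fit holds animal 19 at 0 g only and animal 20 at 4 g only.

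VSIG4, the complement receptor through which Kupffer cells catch opsonised bacteria from the blood, stood at −1.26, −1.20, −1.03 and −1.05 at 0 g and at −1.74, −1.20, −1.00 and −1.11 at 4 g. All values but 1 lay within −1.26 to −1.00, the exception being the dim 4 g array of animal 19. The difference was −0.13 (SE 0.23), of which −0.48 belonged to animal 19 and −0.07 to 0.03 to the other animals, and it was −0.02 without animal 19.

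CSF1R, the receptor tyrosine kinase on which macrophages depend, stood at 3.27, 3.50, 3.89 and 3.80 at 0 g and at 2.91, 3.60, 3.46 and 3.71 at 4 g. Both arrays of animal 19 were the lowest at their dose, and 3 of 4 animals were lower at 4 g. The means of 3.61 ± 0.28 and 3.42 ± 0.36 (SD, n = 4) differed by −0.19 (95% CI −0.74 to 0.35; limma adjusted p = 1.00). The difference stayed below 0 in all 17 alternatives, between −0.29 and −0.06, though some of these cannot alter a difference.

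CD68, a glycoprotein of the lysosomes of phagocytes, varied most. It stood at 1.56, 0.97, 1.72 and 1.39 at 0 g and at −0.13, 1.52, 1.44 and 1.82 at 4 g. The dim arrays were again lowest, at −0.13 and 0.97, while the 6 others lay between 1.39 and 1.82. The log2 difference of −0.25 had an SE of 0.41 and a 95% interval of −1.24 to 0.74, the widest of the members. It was 0.23 without animal 19 and 0.07 in animals 23 and 24 alone.

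LYZ, the lysozyme that cleaves bacterial cell walls and that macrophages release, stood at 1.52, 1.21, 1.32 and 1.22 at 0 g and at 1.50, 1.36, 1.81 and 1.78 at 4 g. The 4 g arrays of animals 23 and 24 were the highest of the 8, and the remaining 6 lay between 1.21 and 1.52. The means of 1.32 ± 0.15 and 1.61 ± 0.22 (SD, n = 4) differed by 0.29 (95% CI −0.26 to 0.85; limma adjusted p = 1.00). The differences were 0.49 and 0.56 in animals 23 and 24, whose arrays the 7 probes above parted by dose, and −0.02 and 0.16 in animals 19 and 20. LYZ stayed above 0 in all 17 alternatives, between 0.07 and 0.52, with the same limit as for CSF1R. Cattle carry several lysozyme genes, and the LYZ probe shares no run longer than 6 bases with the probes of the other lysozymes on the array. Whether it also binds their transcripts was not tested.

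**Figure D2:**
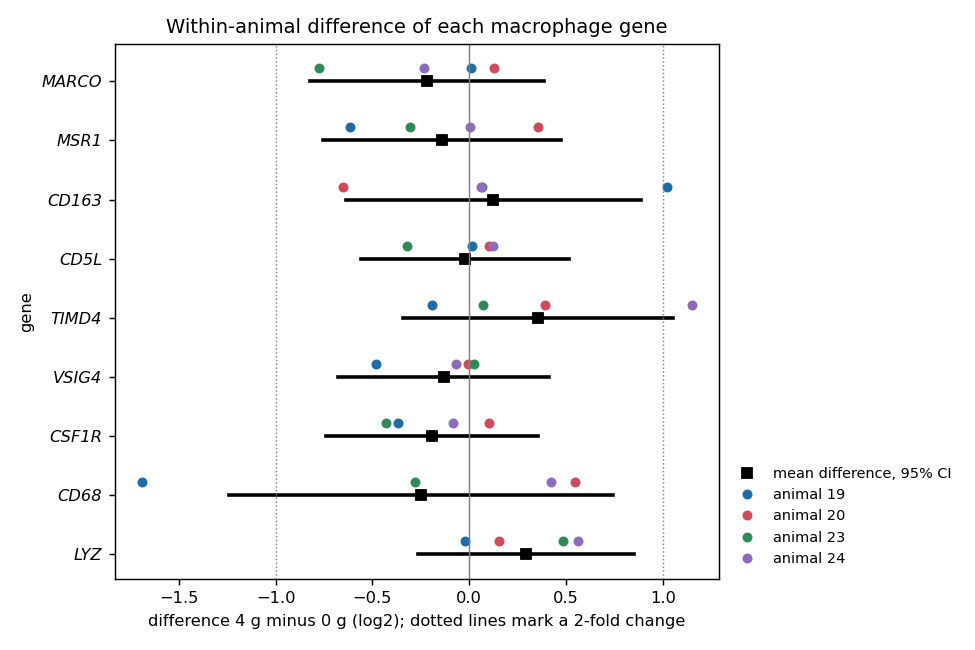
Difference between 4 g and 0 g on the log2 scale (horizontal axis) for each gene, with the limma estimate and its 95% interval in black and the difference of each animal as a coloured point. All 9 intervals include 0, and those of TIMD4 and CD68 reach beyond a 2-fold change.

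The second comparison asked whether the animals differed from each other in these genes beyond the spread within an animal. With an F-test for animal in the same limma model, 0 of 9 members had an adjusted p under 0.05, beside 0 of 10985 probes (0%), and 0 of 9 an unadjusted one, beside 301 probes (2.74%). MSR1 had the smallest value (unadjusted p = 0.147, limma adjusted p = 0.985), followed by MARCO at 0.251 and CSF1R at 0.258. This test takes the labels of animals 23 and 24 as given.

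Other genes of macrophage function were read from 7 lists with 65 genes, of which 58 had a probe and 52 were tested. None passed at an adjusted p under 0.05 with limma, and 0 had an unadjusted p under 0.05. The difference was above 0 for 17 and below for 35 (24 and 28 with median centring), with a median of −0.06 against 0.02 for all tested probes. In animals 19 and 20 alone 18 lay above 0 and 34 below (median −0.07), and in animals 23 and 24 alone 30 above and 22 below (median 0.04). By animal the median of the 52 genes was −0.41, 0.30, −0.21 and 0.22 in animals 19, 20, 23 and 24, which are also the signs of the members' own medians of −0.19, 0.13, −0.28 and 0.06. All probes together had medians between −0.06 and 0.09 in the 4 animals. Neither sign was thus shared by all animals. In animals 19 and 20 the dim array was the lower by the medians of the 52 genes and of the members.

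Of the ligands of CSF1R, CSF1 differed by 0.12 (SE 0.21) and IL34 by −0.22 (SE 0.26), and the receptor for the calming cytokine IL-10, IL10RA, by −0.33 (SE 0.28). In this list of growth factors and cytokine receptors 1 of 5 tested genes lay above 0 and 4 below, the furthest being TGFBR1, a receptor of TGF-beta, at −0.58 (SE 0.43), which was well above background on 4 of 8 arrays. Of transcription factors that set macrophage identity 2 of 8 lay above 0. SPI1, the master factor of myeloid cells, differed by −0.08 (SE 0.33) and was well above background on 6 arrays. The oxysterol receptor NR1H3 differed by −0.13 (SE 0.64). NR1H3 stood at −1.49 and −0.81 on the dim arrays and at 0.56 or more on the 6 others. RXRA, the partner of NR1H3 and other nuclear receptors, differed by −0.87 (SE 0.58), of which −3.03 belonged to animal 23, whose 0 g array carried the pancreatic transcripts.

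Among phagocytic receptors 3 of 10 tested genes lay above 0. The sialic acid receptor SIGLEC1 differed by 0.24 (SE 0.31) and was higher at 4 g in 3 of 4 animals, by 0.55 to 0.58, and lower by 0.73 in animal 19. Both dim arrays lay below all others for SIGLEC1, at −0.46 (4 g, animal 19) and −0.05 (0 g, animal 20). Its differences in animals 19 and 20 are thus also contrasts with a dim array. The apoptotic cell receptor MERTK differed by 0.20 (SE 0.24) and the IgG receptor FCGR1A by 0.03 (SE 0.31). Of the complement list 2 genes were tested, CFP (properdin) at −0.003 (SE 0.28) and the anaphylatoxin receptor C3AR1 at 0.07 (SE 0.22), and C1QA, C1QB and C1QC were not analysed here. Iron-recycling genes, through which Kupffer cells return iron from red blood cells, had 2 of 5 above 0: haem oxygenase HMOX1 at −0.21 (SE 0.30), the iron exporter SLC40A1 at 0.10 (SE 0.29) and SLC11A1, which pumps iron out of phagosomes, at 0.15 (SE 0.26).

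Of the lysosome and oxidase genes 6 of 13 lay above 0. The protease CTSS differed by −0.03 (SE 0.35), CTSD by −0.27 (SE 0.82) and CTSB by −0.06 (SE 0.71). The large errors of CTSD and CTSB lie in the dim arrays: CTSD stood at −2.88 on the 4 g array of animal 19 and −1.77 on the 0 g array of animal 20, against −0.11 to 0.51 on the others. The pore-forming protein MPEG1 differed by 0.24 (SE 0.27). GPNMB, a membrane protein of lipid-laden macrophages, had the largest difference of all 52 genes at 1.05 (SE 0.91). It stood at 0.82, 0.47, −2.54 and −1.57 at 0 g and at 0.41, −1.29, 1.24 and 1.03 at 4 g, so that it was 3.78 and 2.60 higher in animals 23 and 24 and lower in animals 19 and 20, by 0.41 and 1.76. It thus parted the arrays labelled 23 and 24 by dose, as did the 7 probes that put those labels in doubt. Those probes had both arrays of animal 20 on a shared level, whereas GPNMB stood at 0.47 and −1.29 in that animal. Of genes for signalling in myeloid cells 2 of 9 lay above 0, with the adaptor TYROBP at −0.07 (SE 0.23), the Fc receptor chain FCER1G at −0.11 (SE 0.28) and the kinase SYK at 0.06 (SE 0.32).

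**Figure D3:**
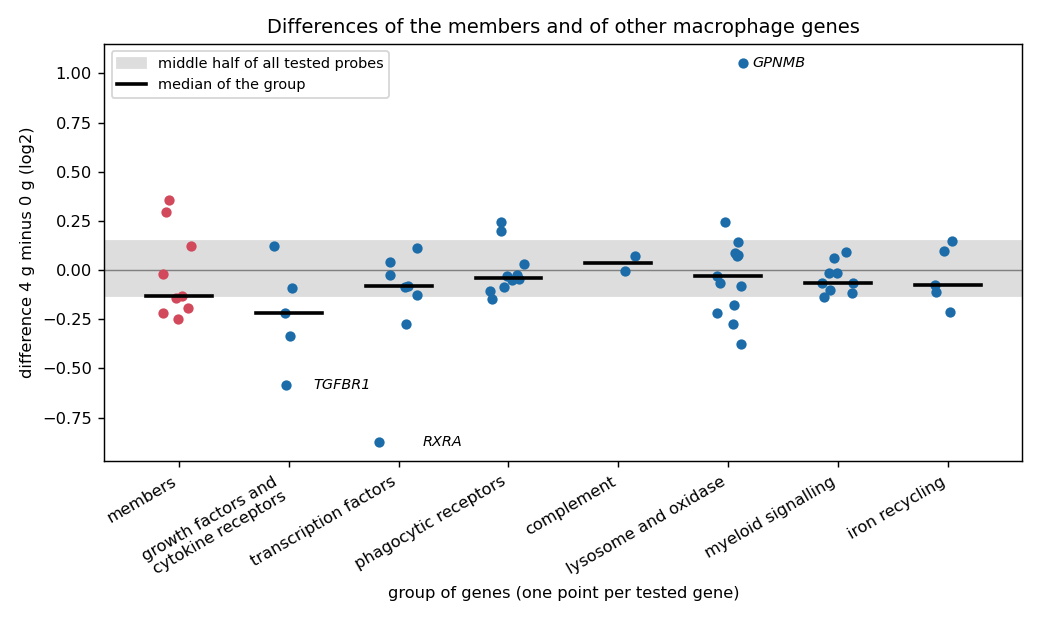
Difference between 4 g and 0 g on the log2 scale (vertical axis) for the 9 members and for 52 other macrophage genes in 7 groups, 1 point for each gene, with group medians as black bars and the middle 50% of all tested probes in grey. The group medians lie between −0.22 and 0.04, and GPNMB at 1.05, RXRA at −0.87 and TGFBR1 at −0.58 lie furthest out.

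The dim arrays were then set beside the other 6, a split by array brightness made after the data were seen. The mean of the dim arrays was below that of the other 6 for 8 of the 9 members, CD163 being the exception, beside 43.5% of 10964 probes with a value on every array. Both dim arrays were below all others for CD68 and MSR1, 2 of 9, a share near the 19.8% of all probes, and above all others for CD163, beside 24.4%. CD68 was 1.16 lower on the dim arrays than on the others, MSR1 0.75 and CSF1R 0.42 lower, MARCO 0.04 and CD5L 0.10 lower, and CD163 was 0.86 higher. Of the 52 other macrophage genes 35 were lower on the dim arrays and 18 of them had both dim arrays below all others, with a median of −0.43 against 0.12 over all probes. The part of brightness in the differences between doses was not tested beyond leaving these arrays out. That fit has 3 arrays per dose and no pairing. It holds animal 19 at 0 g only and animal 20 at 4 g only, so dose is partly confounded with animal in it. There 6 members lay above 0 and 3 below, with a median of 0.03. The other macrophage genes were divided 34 above and 18 below, with a median of 0.11.

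The members did not form a single pattern over the 8 arrays, and the pairs below are a description without a test, in which arrays share an animal and a brightness. Of 36 pairs 26 had a Pearson r above 0, with a median of 0.38, and 0.30 over the 6 arrays without the dim ones. CSF1R and MSR1 ran most closely together (r = 0.94, and 0.92 without the dim arrays), followed by VSIG4 and MSR1 (0.92 and 0.82). MARCO ran with CD5L (0.82 and 0.84) and opposite to LYZ (−0.70 and −0.71). The likeness of CD68 to VSIG4 (0.88) was not seen without the dim arrays (−0.08), nor was the opposition of CD163 and CD68 (−0.76 and −0.01). The genes most like the mean of the 9 members over 8 arrays were BST2 (r = 0.96), KDR (0.96), RGS10 (0.94), CNPPD1 (0.94) and NCK1 (0.94), with values of 0.80 to 0.98 without the dim arrays. They were picked for the highest r among all tested genes outside the members, so high values are in part a product of the search. The 6 arrays are part of the same 8 and give no separate support. KDR is also in the list of sinusoidal endothelial markers, and its r without the dim arrays was 0.96. The markers of that list did not run together: on the 4 g array of animal 19 KDR and STAB2 were at their lowest, 0.48 and −2.44. STAB1 was at its highest there, 2.47.

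**Figure D4:**
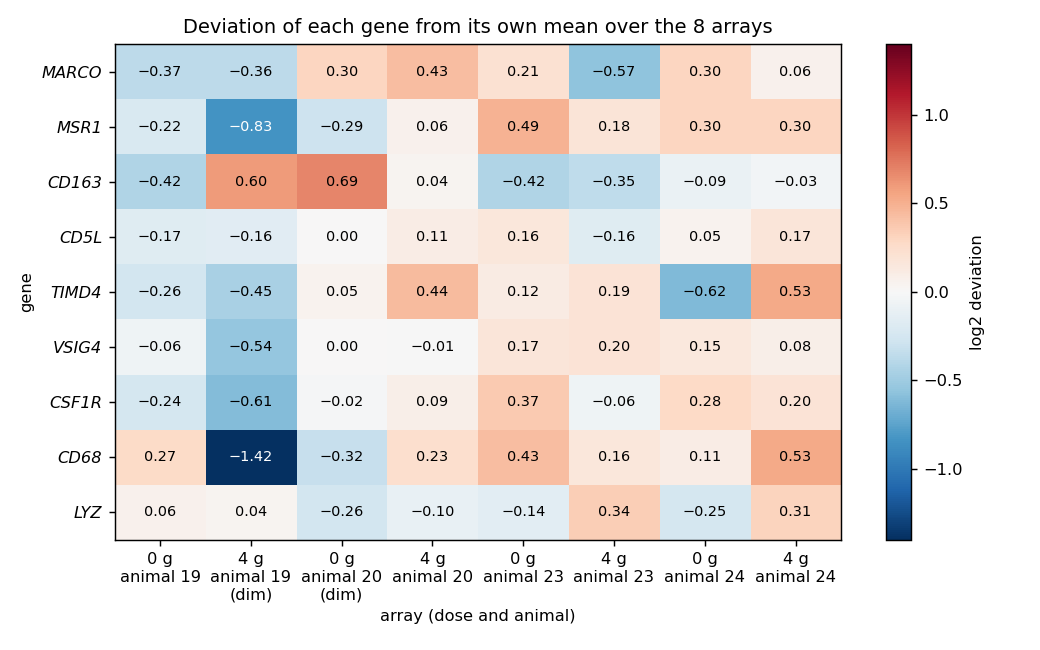
Deviation of each gene from its own mean over the 8 arrays (colour and printed value, log2), with arrays ordered by animal and dose and the dim arrays marked. CD68 on the 4 g array of animal 19 has the lowest value, −1.42, and CD163 on the dim arrays the highest ones, 0.60 and 0.69.

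Markers of other cells moved as follows, and their part in the members' values was not tested. Hepatocyte markers averaged 4.70 to 5.22 at 0 g and 4.89 to 5.17 at 4 g (10 of 10 well above background throughout), with 9 of 10 above 0 (median 0.08). Sinusoidal endothelial markers averaged −0.94 to −0.73 at 0 g and −1.38 to −0.69 at 4 g (8 or 9 of 9), and 9 of 9 tested genes lay below 0 (median −0.16). Neutrophil and monocyte markers averaged −2.92 to −1.96 and −3.05 to −2.64 (6 to 9 of 10), with 7 of 8 below 0 (median −0.15). Lymphocyte markers averaged −3.25 to −2.85 and −3.58 to −2.85 (6 to 10 of 10), with 5 of 10 below 0 (median −0.07). Stellate cell and fibroblast markers averaged −0.86 to 0.38 and −1.31 to −0.35 (8 to 10 of 10), with 8 of 10 below 0 (median −0.50), and red blood cell markers −4.51 to −3.18 and −4.39 to −3.87 (2 to 5 of 6), with 3 of 4 below 0 (median −0.01). None of the genes in these lists passed at an adjusted p under 0.05 with limma, and 3 of the 10 stellate and fibroblast genes had an unadjusted p under 0.05, beside 1.1% of all tested probes. These were DES (difference −1.13), TAGLN (−1.04) and COL1A2 (−0.95), each lower at 4 g in 4 of 4 animals (limma adjusted p = 1.00), and they are named after their values were seen. The members themselves averaged 1.31 to 1.62 at 0 g and 1.05 to 1.71 at 4 g.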

How the data were processed

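Liver RNA of 4 cattle at 2 doses was measured on 8 Agilent 1-colour arrays (Cy3). Per the file headers, the deposited spot intensity values are processed signals of Agilent Feature Extraction 11.0.1.1, background-subtracted and detrended, with no scaling between arrays, and the submitters' processing notes name version 9.5. The series table deposited by the authors holds log2 values centred on the 75th percentile, which correlated with the log2 processed signal of each array at 1.00.

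Of 15646 features, 536 controls and 48 outlier spots were left out and spots of a probe were averaged. The 75th percentile of each array was subtracted from log2 signals. Probes well above background on at least 4 arrays were tested (10985) with limma 3.58.1 in R 4.3.3 (lmFit, eBayes, 2-sided, animal as a block, Benjamini-Hochberg at 0.05 over all tested probes). The procedure was tested on simulated data with a smaller spread within an animal than these arrays had. That test does not show what sizes could be found here. The block rests on the labels, which give both doses of an animal the same number. Deviations from the dose means correlated within an animal at −0.19 and −0.18 in animals 19 and 20, each with 1 dim array. They correlated at 0.21 and 0.13 in animals 23 and 24, whose labels were in doubt above. Nothing says that arrays of an animal came from separate extractions. With animal as a block, the p-values for dose set the mean difference against the spread of the within-animal differences, as moderated by eBayes. Genes other than members were named by accession in a RefSeq table of ARS-UCD2.0 or kept the file's name (11194 probes matched by accession), 1 probe a gene, the one with the highest mean. From 7 lists, the first 3 tested genes and the 2 smallest p in each direction were named, except 1 gene that is not reported here. The members and lists were chosen with earlier results of these data known. All arrays came from 1 slide and 1 scan. The number of arrays limits the precision. Alternatives covered background, scaling, filter, variance model, weights, block and left-out arrays.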

Additional observations from a re-analysis of the deposited data

Results flagged for a closer look

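The level of MARCO at 0 g in animal 19, 3.37, lay far from the 3 other animals at that dose, which were within 3.95 to 4.04. It was the only flag among 18 groups of 4 values (9 genes at 2 doses) examined for a single value that stands apart, and chance flags about 1 in 20 such groups. The 4 g array of the same animal had a level of 3.38.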

How the results depend on the processing

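Each of the 9 members was recomputed under 17 alternatives. Of 153 values 139 kept their direction, and in all 153 the adjusted p stayed above 0.05 (0.974 to 1.00). No probe passed in 16 of the alternatives. Without the 2 dim arrays and with no replicate block 5 probes passed, for GIMAP4, GIMAP6, IL20RA, ULBP3 and LOC768255, none of them a macrophage gene of the lists, so the count for members and other macrophage genes was 0 in all 17. The fit in which these 5 passed holds animal 19 at 0 g only and animal 20 at 4 g only. Between animals, leaving out an animal gave 0 to 1 probes, the 1 being REC8 without animal 19. With no replicate block the number of probes that passed was 0, the median of the members was −0.13, and no call changed.

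The direction of CD5L turned with normexp background correction (0.0275), quantile normalization (0.0253), median centring (0.0190), in animals 19 and 20 alone (0.0576), without the 0 g array of animal 23 (0.0288) and without the dim arrays (0.0254). That of CD68 turned in animals 23 and 24 alone (0.0734) and without the dim arrays (0.0347), that of VSIG4 without the dim arrays (0.00431), and that of MARCO in animals 19 and 20 alone (0.0677). Leaving out each animal gave −0.0692 to 0.0800 for CD5L, −0.17 to 0.38 for CD163, −0.31 to 0.0174 for MSR1, −0.51 to 0.23 for CD68, −0.33 to −0.03 for MARCO, −0.18 to −0.02 for VSIG4, −0.29 to −0.12 for CSF1R, 0.09 to 0.54 for TIMD4 and 0.21 to 0.40 for LYZ. The turns of CD163, MSR1 and CD68 came without animal 19, and that of CD5L without animal 23. The cause was not tested. Without animal 19 the median of the 52 other macrophage genes was 0.11, and without animal 23 it was 0.04. All 9 probes were well above background on 8 of 8 arrays.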

Other observations

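Other lysozyme genes, looked at after their values were seen, varied in detection. LYZL1, LYZL4 and LYSB were well above background on 0 of 8 arrays, LYZ3 and LYZL6 on 1. LYZ2 was measured on 8 of 8 arrays and differed by −0.03 (SE 0.44) between 4 g and 0 g. A LYZ1 probe (1 of the 2 so named) was well above background on 2 arrays, at −0.86 on the 0 g array of animal 19 and −3.71 on the 0 g array of animal 23, and it stood between −8.31 and −6.53 on the other 6. LYZ stood at 1.52 and 1.32 on those arrays, the highest levels of the 4 at 0 g. Over all 8 arrays LYZ was highest on the 4 g arrays of animals 23 and 24, at 1.81 and 1.78. This LYZ1 probe stood at −8.29 and −7.78 there. A link between the LYZ and LYZ1 signals was not tested. The other LYZ1 probe was well above background on 6 of 8 arrays and differed by −0.003 (SE 0.33).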
